A study of Saccharomyces cerevisiae with 6 samples.

Results

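The cytosolic ribosomal protein genes of Saccharomyces cerevisiae were followed across untreated yeast and yeast given glycolaldehyde, a small reactive aldehyde, with the A and B copies of each duplicated gene set against each other. Members were all genes whose standard name starts with RPS, RPL or RPP followed by a number and, for duplicated genes, the letter A or B, with no dubious reading frames. Of 138 such names, 137 had a probe, and RPL20A was not measured under its name. The pattern also took in RPP1 (YHR062C), a subunit of the RNA-processing enzymes RNase P and RNase MRP, which is set apart here (log2 change 0.09 ± 0.06 SE, n = 3 arrays per group, limma adjusted p = 0.258). That left 136 ribosomal protein genes of 6225 array identifiers, with 56 of the small subunit, 75 of the large subunit and 5 of the stalk, and they form 58 pairs with both copies measured.

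The study compared 3 cultures given 10 mM glycolaldehyde with 3 untreated cultures by RNA hybridised to 1-colour Agilent arrays. All cultures were of the strain named BY4743, grown at 30 °C in synthetic medium with 2% glucose and held without shaking for 4 h. Per the labels' protocols, RNA came from 3 independent starter cultures and 200 ng of each was labelled with Cy3. The labels call the strain haploid, although BY4743 is the name of a diploid, call the growth anaerobic, and leave unclear whether glycolaldehyde was also in the overnight medium. The free-text descriptions give the treatment the other way round from the titles and the treatment field, which were followed here.

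The records of the arrays disagree. For 3 of 6 samples, the column of the deposited value table holds the values of a scanner file that is attached to another sample, and for 2 of these (glycolaldehyde replicate 1 and untreated replicate 3) the attachment crosses the groups. Results below use the value table, grouped by sample title. With the scanner files grouped as attached, 0 of the 136 ribosomal protein genes, 0 of 58 pairs and 0 of 5924 genes tested passed limma's test, against 0 members, 0 pairs and 138 genes at an unadjusted p under 0.05. Results are therefore also given for the 4 arrays that both records place in the same group.

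Between 94.8% and 97.0% of probes were well above background on each array, and no spot was saturated. All 136 members passed the filter on dim probes, as did 5944 genes in all. Glycolaldehyde replicates 1 and 2 and untreated replicates 1 and 2 were scanned on 1 day (scan day 1), and replicate 3 of both groups on another (scan day 2). URA3, LEU2 and HIS3, which carry deletions in this strain background, were not well above background. Of the other 16 strain and mating-type genes 5 were called higher and 4 lower (56.25% called, near the 53.1% of all genes tested). The a-cell receptor gene STE2 and the alpha-cell receptor gene STE3 were both well above background in both groups.

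Ribosomal proteins are assembled with ribosomal RNA in the nucleolus and cytoplasm into a small subunit, which decodes mRNA, and a large subunit, which joins amino acids. Their genes are among the most strongly transcribed in growing yeast. They are driven as a group by Rap1, Fhl1, Ifh1 and Sfp1 under TOR and protein kinase A signalling, and are known for falling together when growth is checked. Most are kept as 2 copies from an ancient genome duplication, whose proteins are identical or nearly so while their promoters, introns and untranslated regions differ.

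Most ribosomal protein genes differed by less than 0.2 log2 between cultures with and without glycolaldehyde. By limma at an adjusted p of 0.05, 6 of 136 rose, 14 fell and 116 did not pass, so that 20 (14.7%) were called where 53.1% of all 5944 genes were (29.7% higher and 23.5% lower). The median log2 change, glycolaldehyde minus untreated, was 0.00 with quartiles at -0.08 and 0.05, against a median of 0.03 over all genes. The median size of change was 0.06 log2 for the members and 0.22 for all genes, while the median standard errors were 0.08 and 0.07. A change under 0.2 log2 in either direction was seen for 116 members (85.3%) and for 45.7% of all genes. The groups did not overlap for 27 members (19.9%), compared with 60.9% of all genes. These values are relative to each array's own signals from a fixed mass of RNA, so fewer cells, less RNA per cell and a shift shared by all RNA cannot be told apart.

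**Figure D1:**
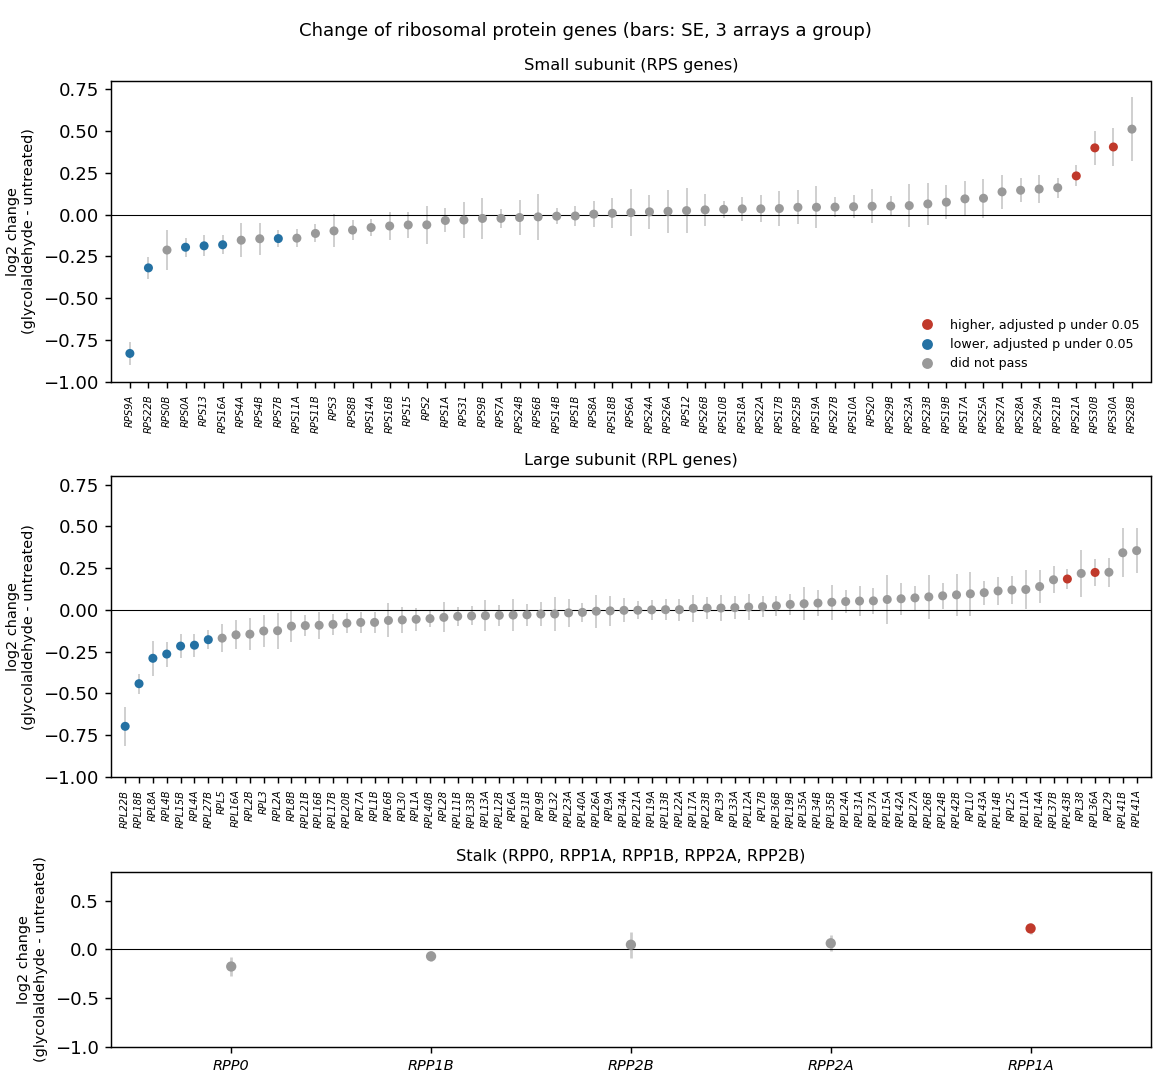
Log2 change (glycolaldehyde minus untreated) of the ribosomal protein genes reported here, ordered by size within the small subunit, the large subunit and the stalk, with bars for the SE (3 arrays per group). Red points were called higher, blue lower and grey not called, and most points lie near 0 with RPS9A at -0.83 as the lowest and RPS28B at 0.51 as the highest.

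The 4 arrays on which both records agree gave 4 members higher and 14 lower (48.6% of all genes called), and a member median of -0.07. They are glycolaldehyde replicates 2 and 3 and untreated replicates 1 and 2. Among them only glycolaldehyde replicate 3 was scanned on scan day 2. Treatment and scan day are therefore partly mixed in every value over these 4 arrays. Of the 20 members called over 6 arrays, 15 were also called over these 4, and RPL15B, RPL27B, RPL36A, RPL43B and RPS7B were not. The samples of a replicate number deviated together, which cannot be told apart from scan day. With that number as a block 13 members rose and 23 fell (65.6% of all genes called), the 20 above among them. Under quantile normalization 21 members were called higher and 9 lower (54.5% of all genes called), so that 70% of the calls were higher, against 30% with the percentile scaling.

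In the small subunit, 3 of 56 genes rose and 6 fell, with a median of 0.01. RPS9A (YPL081W), 1 of 2 genes for a protein near the mRNA entry side, had the largest decrease of all members. Its log2 signal above the array's 75th percentile was -0.16, -0.14 and -0.29 in glycolaldehyde arrays, against 0.64, 0.71 and 0.55 in untreated arrays. The groups were far apart, and the change of -0.83 ± 0.07 (SE, adjusted p = 8.1e-05) is 1.78-fold lower with glycolaldehyde. Over the 4 arrays of agreed group it was -0.89, and the call held without any 1 array.

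RPS22B (YLR367W), 1 of 2 genes for a protein of the small subunit body, had 2.70, 2.66 and 2.81 in glycolaldehyde arrays and 2.96, 3.05 and 3.11 in untreated arrays. Every glycolaldehyde array was below every untreated one, by -0.32 ± 0.07 (adjusted p = 0.00499). Smaller decreases passed for RPS0A at -0.20 ± 0.06 (0.021), RPS13 at -0.19 ± 0.06 (0.0393), RPS16A at -0.18 ± 0.06 (0.0312) and RPS7B at -0.14 ± 0.05 (0.042, adjusted p in each case). RPS0A encodes a protein needed for late maturation of the small subunit. These 4 calls were lost without untreated replicate 1 (adjusted p between 0.0609 and 0.122). Under quantile normalization RPS7B stood at 0.00 and RPS16A at -0.10 (adjusted p = 0.126).

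RPS30A and RPS30B, which encode the same small protein, rose together. RPS30A (YLR287C-A) had 2.53, 2.29 and 2.55 in glycolaldehyde arrays, against 1.88, 2.01 and 2.26 in untreated arrays, a change of 0.41 ± 0.11 (adjusted p = 0.0178). RPS30B (YOR182C) had 2.05, 1.88 and 1.99 in glycolaldehyde arrays, against 1.40, 1.53 and 1.79 in untreated arrays, a change of 0.40 ± 0.10 (adjusted p = 0.0131). In both genes the untreated array of scan day 2 lay nearest to the glycolaldehyde arrays, and within scan day 2 the changes were 0.29 and 0.19. RPS30A lost its call without untreated replicate 1 (adjusted p = 0.0584), and RPS30B kept it without each array. RPS21A, for a small-subunit protein that contacts Rps0, rose by 0.23 ± 0.06 (adjusted p = 0.0163), also lost without untreated replicate 1 (0.0671).

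RPS28B (YLR264W) had the highest value of all members but did not pass over 6 unblocked arrays. Its protein is known to bind its own mRNA and recruit the decapping activator Edc3. It had 3.24, 3.32 and 2.66 in glycolaldehyde arrays, against 2.68, 2.74 and 2.26 in untreated arrays. The groups overlapped, with both replicate 3 arrays low, and the change was 0.51 ± 0.19 (adjusted p = 0.0561; 0.000205 with the replicate block), or 0.28 over the 4 arrays of agreed group (0.29). RPS14B, whose pre-mRNA is bound by the protein it encodes, stood at -0.01 ± 0.05 and its copy RPS14A at -0.08 ± 0.05. RPS3, whose protein sits at the mRNA entry, was at -0.10 ± 0.10 and did not pass. RPS0B and the copies RPS4A and RPS4B, at -0.21, -0.15 and -0.14, passed with the block and not without it (adjusted p = 0.00531, 0.0209 and 0.0308).

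In the large subunit, 2 of 75 genes rose and 8 fell, with a median of -0.00. RPL22B (YFL034C-A), the minor copy for a protein that yeast can do without and that is known to repress splicing of RPL22B itself, was lowest. It had -0.84, -1.01 and -0.67 in glycolaldehyde arrays, against -0.26, -0.23 and 0.07 in untreated arrays. Each group spread by about 0.3 log2 without meeting the other, and the change was -0.70 ± 0.12 (adjusted p = 0.00185), or 1.62-fold lower. Over the 4 arrays of agreed group it was -0.59.

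RPL18B (YNL301C) had -1.19, -1.24 and -1.08 in glycolaldehyde arrays, against -0.77, -0.71 and -0.70 in untreated arrays, a change of -0.44 ± 0.06 (adjusted p = 0.000748). The groups did not overlap, and the call held without any 1 array.

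RPL4A and RPL4B, for a protein that lines the exit tunnel, fell by 0.21 ± 0.07 and 0.26 ± 0.07 log2 (adjusted p = 0.0328 and 0.0196). RPL8A fell by 0.29 ± 0.10 (0.0489), RPL15B by 0.22 ± 0.07 (0.0332) and RPL27B by 0.18 ± 0.06 (0.0343, adjusted p in each case). Without untreated replicate 1 these 5 calls were lost (adjusted p between 0.0649 and 0.137). Quantile normalization also ended the calls of RPL27B (-0.04, 0.645), RPL8A (-0.18, 0.146) and RPL4A (-0.16, 0.0783). RPL36A (0.22 ± 0.08, adjusted p = 0.0478) and RPL43B (0.18 ± 0.06, 0.0352) rose, and both were lost without that array (0.146 and 0.127) and over the 4 arrays of agreed group (0.103 and 0.1). The change of RPL36A was 0.33 within scan day 1 and 0.00 within scan day 2.

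RPL41A and RPL41B, which encode the smallest ribosomal protein, stood at 0.35 ± 0.14 and 0.34 ± 0.15 (adjusted p = 0.0592 and 0.0858; 0.0014 and 0.00148 with the replicate block), or 0.19 and 0.16 over the 4 arrays of agreed group (0.317 and 0.419). RPL41A had 3.37, 3.33 and 2.92 in glycolaldehyde arrays, against 3.02, 2.86 and 2.67 in untreated arrays. As with RPS28B, both arrays of scan day 2 were the lowest of their group. The single-copy genes RPL29 and RPL38, both dispensable in yeast, were at 0.23 and 0.22 and passed with the block and not without it (adjusted p = 0.0381 and 0.00704; 0.157 and 0.803 over the 4 arrays, with RPL38 at 0.05), as did RPL5, whose protein carries the 5S rRNA, at -0.17 (0.018).

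Several well-studied genes of the large subunit did not pass. RPL3 at the peptidyl transferase centre stood at -0.13 ± 0.09, RPL10, which joins late in the cytoplasm, at 0.10 ± 0.13, and RPL28 at -0.04 ± 0.09. RPL25, which docks factors at the tunnel exit, stood at 0.12 ± 0.08, and RPL30, whose protein represses splicing of its own transcript, at -0.06 ± 0.08. Of the 19 members with a single name, only RPS13 was called.

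The stalk recruits the translation GTPases, with RPP0 as its base and P1 and P2 proteins as its arms. RPP1A (YDL081C) rose, with 3.27, 3.25 and 3.28 in glycolaldehyde arrays, against 2.96, 3.08 and 3.13 in untreated arrays. The groups did not overlap, and the change was 0.22 ± 0.06 (adjusted p = 0.0188; 0.076 without untreated replicate 1). RPP1B was at -0.07 ± 0.05, RPP2A at 0.06 ± 0.08, RPP2B at 0.05 ± 0.13 and RPP0 at -0.18 ± 0.09, none called over 6 arrays. RPP0 passed with the replicate block (adjusted p = 0.0115).

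RPS31, RPL40A and RPL40B encode ribosomal proteins made as fusions to ubiquitin, and they stood at -0.03 ± 0.11, -0.02 ± 0.06 and -0.05 ± 0.05. The polyubiquitin gene UBI4, known for its induction by stress, had 2.32 in each of the glycolaldehyde arrays, against 1.11, 1.07 and 1.11 in untreated arrays, a change of 1.22 ± 0.05 (adjusted p = 2.7e-06). Thus 1 of 4 ubiquitin genes rose and none of the 3 fusions passed (smallest adjusted p = 0.431).

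The copies of a pair were compared by the change of A minus the change of B, computed within each array, which cancels a shift shared by all signals of an array but not a quantile normalization. Of 58 pairs, 8 (13.8%) differed in limma's fit over all genes and pairs, 6 with the A copy and 2 with the B copy changing upward relative to the other. In the 2 widest, 1 copy fell and the other did not pass. For RPS9 the difference was -0.81 ± 0.08 (adjusted p = 0.000215). RPS9B had 5.10, 5.09 and 4.72 in glycolaldehyde arrays and 5.07, 5.10 and 4.80 in untreated arrays, a change of -0.02 ± 0.12 that did not pass. For RPL22 the difference was 0.70 ± 0.14 (95% interval 0.37 to 1.03, adjusted p = 0.00458). RPL22A had 4.81, 4.78 and 4.62 in glycolaldehyde arrays and 4.70, 4.76 and 4.74 in untreated arrays, with a change of 0.00 ± 0.07.

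**Figure D2:**
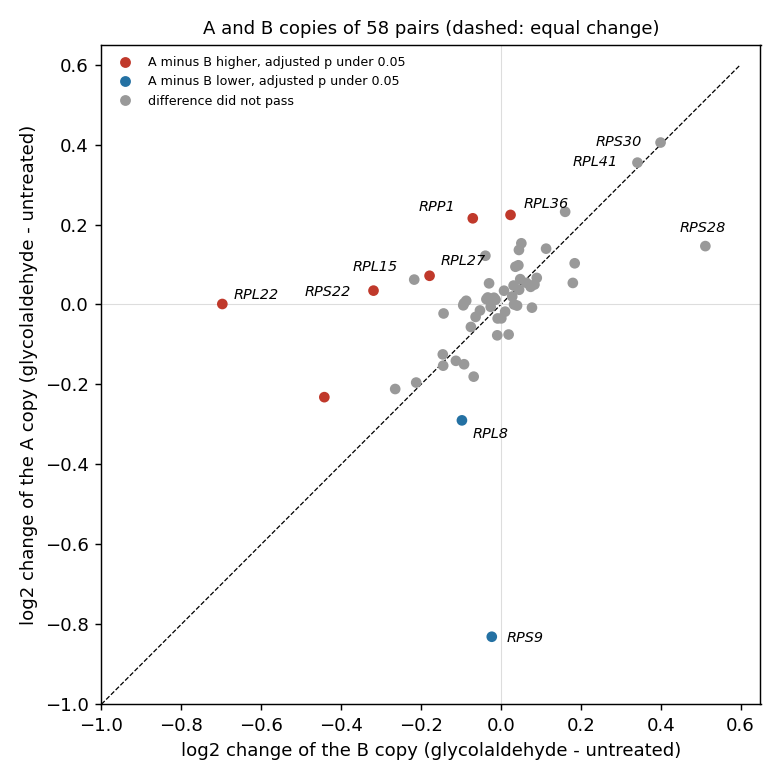
Log2 change of the A copy (vertical) against that of the B copy (horizontal) for 58 pairs, glycolaldehyde minus untreated, with a dashed line of equal change. Red pairs had A called above B (6), blue pairs A called below B (2), and RPS9 and RPL22 lie farthest from the line, while RPS30 and RPL41 lie on it at the upper right.

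The other differences that passed were smaller. RPS22 differed by 0.35 ± 0.12 (adjusted p = 0.0349), with RPS22A at 0.03 ± 0.08 and the within-array differences of the groups overlapping. The pair of RPP1A and RPP1B differed by 0.29 ± 0.06 (0.00559), RPL27 by 0.25 ± 0.06 (0.0103), with RPL27A at 0.07. RPL36 differed by 0.20 ± 0.06 (0.0208), with RPL36B at 0.02, and RPL8 by -0.19 ± 0.05 (0.0147), with RPL8B at -0.10. RPS9, RPL22, RPL27 and the pair of RPP1A and RPP1B kept their calls without each array. RPL8 and RPL36 lost theirs without untreated replicate 1 (adjusted p = 0.058 and 0.0834), RPL8 also under quantile normalization (-0.13, 0.138) and with normexp correction before it (-0.16, 0.0727), and RPS22 without untreated replicate 2 or 3 (0.0668 and 0.0847). RPL36 and RPS22 also lost theirs without glycolaldehyde replicate 1 or 2, and RPL36 without untreated replicate 2. Over the 4 arrays of agreed group 5 pairs passed, and RPL27 and RPS22 were among those that did not (adjusted p = 0.0627 and 0.197).

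With the replicate block 13 pairs passed. RPS28, where RPS28A stood at 0.15 ± 0.07, differed by -0.37 ± 0.16 (interval -0.75 to 0.02, adjusted p = 0.0975; 0.000644 with the block), and by -0.17 over the 4 arrays of agreed group (0.395). RPL15, where RPL15A stood at 0.06 ± 0.15, differed by 0.28 ± 0.15 (0.144; 0.0041 with the block), and by 0.07 over those 4 arrays (0.629). Of the 50 pairs that did not pass, 42 had a 95% interval within 0.25 log2 of 0 on both sides. The closest pairs were RPS30 at 0.01 ± 0.06, RPS26 at -0.01 ± 0.07, with RPS26A at 0.02 and RPS26B at 0.03, and RPS4 at -0.01 ± 0.05. The copies' sequences are alike, and whether a probe also reads the other copy was not tested.

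**Figure D3:**
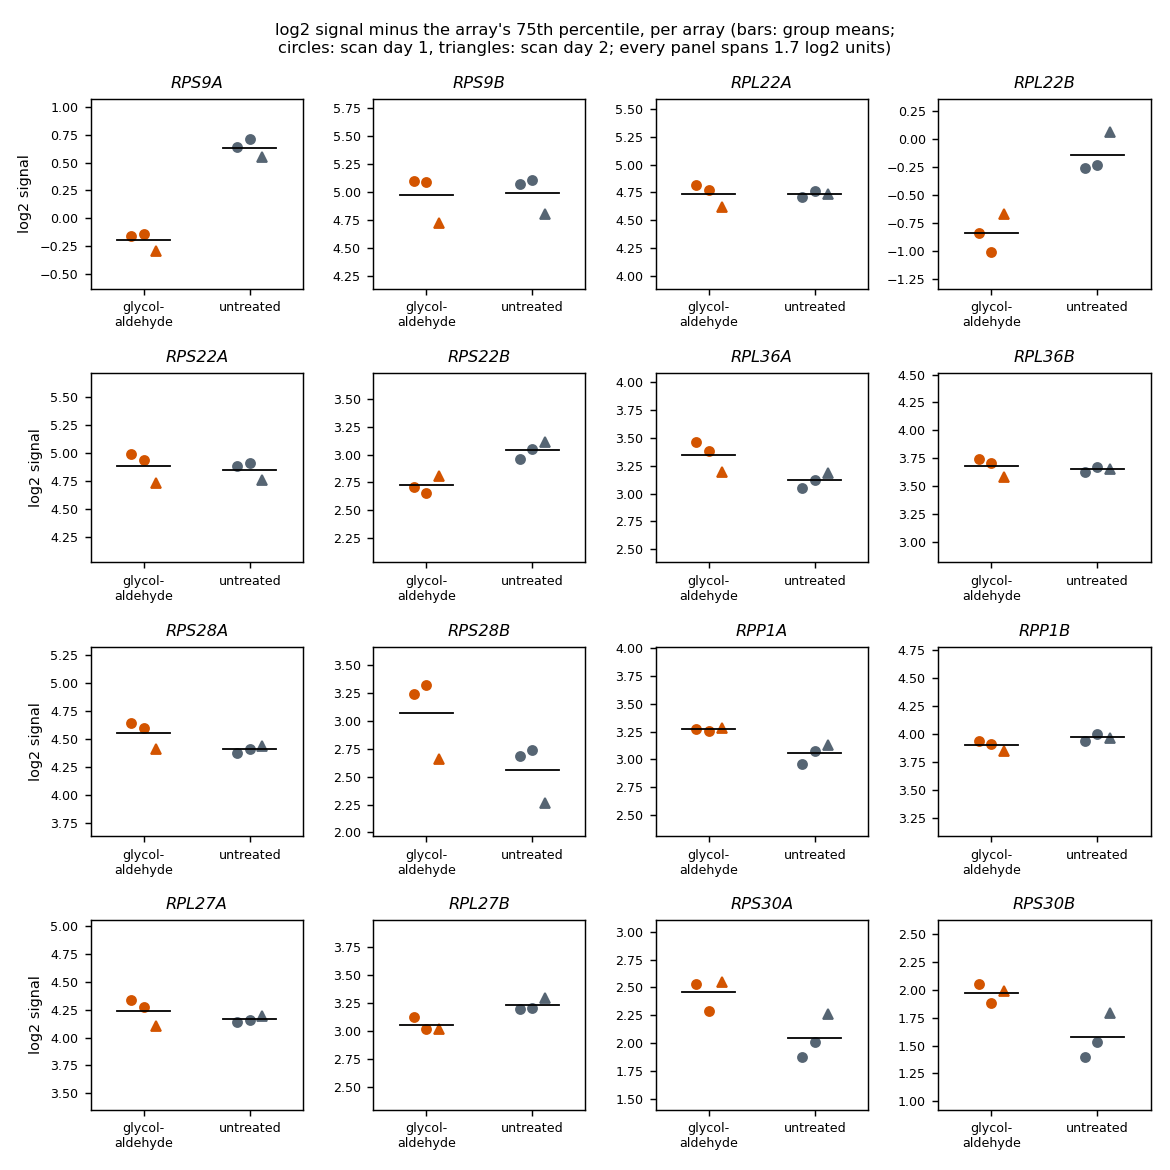
Log2 signal minus the array's 75th percentile on each array for both copies of selected pairs, glycolaldehyde left of untreated, with bars for group means, circles for scan day 1 and triangles for scan day 2. RPS9A and RPL22B are lower in all 3 glycolaldehyde arrays while RPS9B and RPL22A overlap, and both copies of RPS30 are higher.

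Across the 58 pairs the changes of the A and B copies had the same sign in 40 and correlated at r = 0.45 (Spearman rho 0.61). Over the 56 pairs other than RPS9 and RPL22, r was 0.68. Those pairs have the widest differences between copies in these same data, so the higher r is no separate evidence. The points share the same 6 arrays and their scaling. Both copies were called in 3 pairs (RPL4 and RPS30 among them), each time in the same direction, 1 copy in 13 pairs and neither in 42. Of the A copies 4 rose and 6 fell (17.2% called), and of the B copies 2 rose and 7 fell (15.5%), among 58 each. The shares called were thus alike, and over all genes the share was 53.1%.

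The signals of the ribosomal protein genes differed between the arrays of the scan days. Their median log2 signal was 4.32, 4.29 and 4.03 in glycolaldehyde arrays, against 4.19, 4.22 and 4.11 in untreated arrays, with both replicate 3 arrays the lowest of their group. The median change was 0.05 within scan day 1 (2 against 2 arrays) and -0.10 within scan day 2 (1 against 1). For 129 of 136 members the change was lower on scan day 2, by a median of 0.14 log2, where the median over all genes differed by 0.02. The sign was the same on both days for 66 members (48.5%), against 84.2% of all genes. It was also the same for each of the 20 called. Their groups did not overlap on these same arrays, which fixes the sign on both days, so this is no separate check. Within scan day 1 limma called 35 members higher and 22 lower (70.2% of all genes called). The order of the members was alike on both days (r = 0.90, rho 0.80 over 136 genes, from arrays that the days do not share), and so was that of the pair differences (r = 0.93, 58 pairs). Slide, scan day and replicate number coincide for replicate 3, and their part in these shifts cannot be told apart. The 136 members share the same arrays, so the 129 are not independent observations. Untreated replicate 1 was alone on its slide, while glycolaldehyde replicates 1 and 2 shared a slide with untreated replicate 2. A slide block therefore takes untreated replicate 1 out of the comparison.

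**Figure D4:**
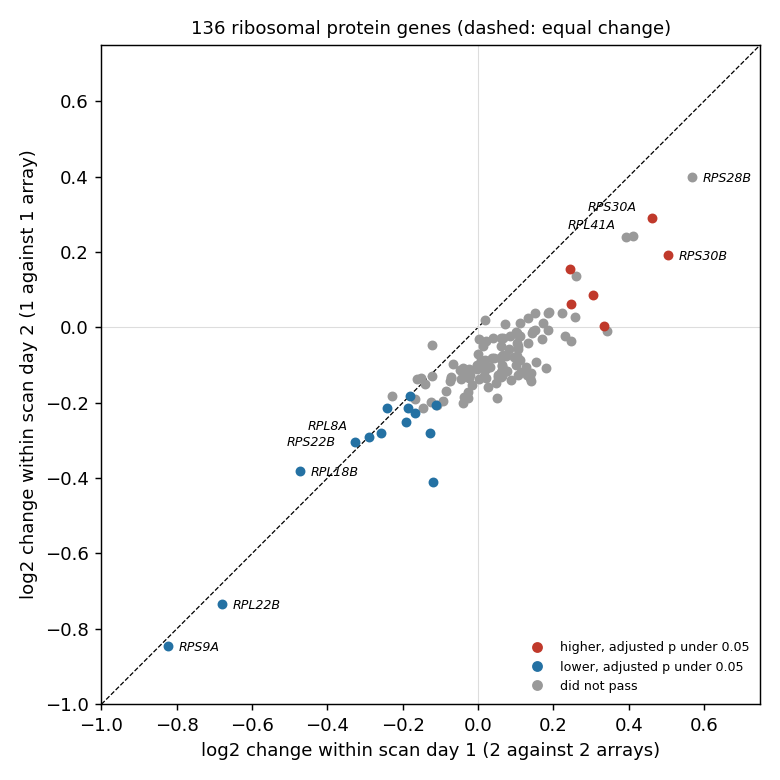
Log2 change of each of the 136 ribosomal protein genes within scan day 1 (horizontal, 2 against 2 arrays) and scan day 2 (vertical, 1 against 1 array), glycolaldehyde minus untreated, with a dashed line of equal change. Nearly all points lie below the line (129 of 136). The called members have the same sign on both days, which follows from their groups not overlapping.

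Genes that act on the ribosomal proteins or their genes were counted beside the share called over all genes (53.1%). Of 35 genes for their transcription and its signalling, 2 rose and 12 fell (40% called, median -0.06). DOT6, a repressor of ribosome biogenesis genes, had 0.01, -0.09 and 0.55 in glycolaldehyde arrays, against 1.35, 1.44 and 1.75 in untreated arrays, a change of -1.36 ± 0.17 (adjusted p = 0.000591). SFP1, an activator of ribosomal protein genes, had -2.05, -2.12 and -2.05 in glycolaldehyde arrays, against -1.32, -1.22 and -1.50 in untreated arrays, a change of -0.73 ± 0.08 (0.000251). A repressor and an activator thus both fell, with no overlap between groups. BCY1, the protein kinase A inhibitor, fell by 0.45 ± 0.11 (0.0117), and the stress activators MSN2 and MSN4 by 0.44 ± 0.06 and 0.42 ± 0.13 (0.00084 and 0.0266, adjusted p in each case). MSN4 was lost without untreated replicate 1 (0.0847).

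Of 18 listed genes, namely chaperones and importers of ribosomal proteins and some other factors of ribosome synthesis, 2 rose and 3 fell (median -0.00). KAP123, the main importer of ribosomal proteins, had -1.15, -0.98 and -0.98 in glycolaldehyde arrays, against -0.21, -0.14 and -0.38 in untreated arrays, a change of -0.79 ± 0.08 (adjusted p = 0.000222). KAP104 (0.31 ± 0.06) and FAP7 (0.27 ± 0.05) rose, and BCD1 (-0.28 ± 0.06) and LTV1 (-0.25 ± 0.08, lost without untreated replicate 1, adjusted p = 0.0883) fell.

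Of 19 factors that sit on the cytosolic ribosome, 3 rose and 6 fell (median -0.06). SCP160, a polysome-bound RNA-binding protein, fell by 0.65 ± 0.06 log2. The ribosome-bound Hsp70 genes SSB1, SSB2 and SSZ1, whose products meet the growing chain, fell by 0.58 ± 0.06, 0.49 ± 0.05 and 0.45 ± 0.05. NAT5, of the N-terminal acetyltransferase NatA, rose by 0.57 ± 0.07.

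**Figure D5:**
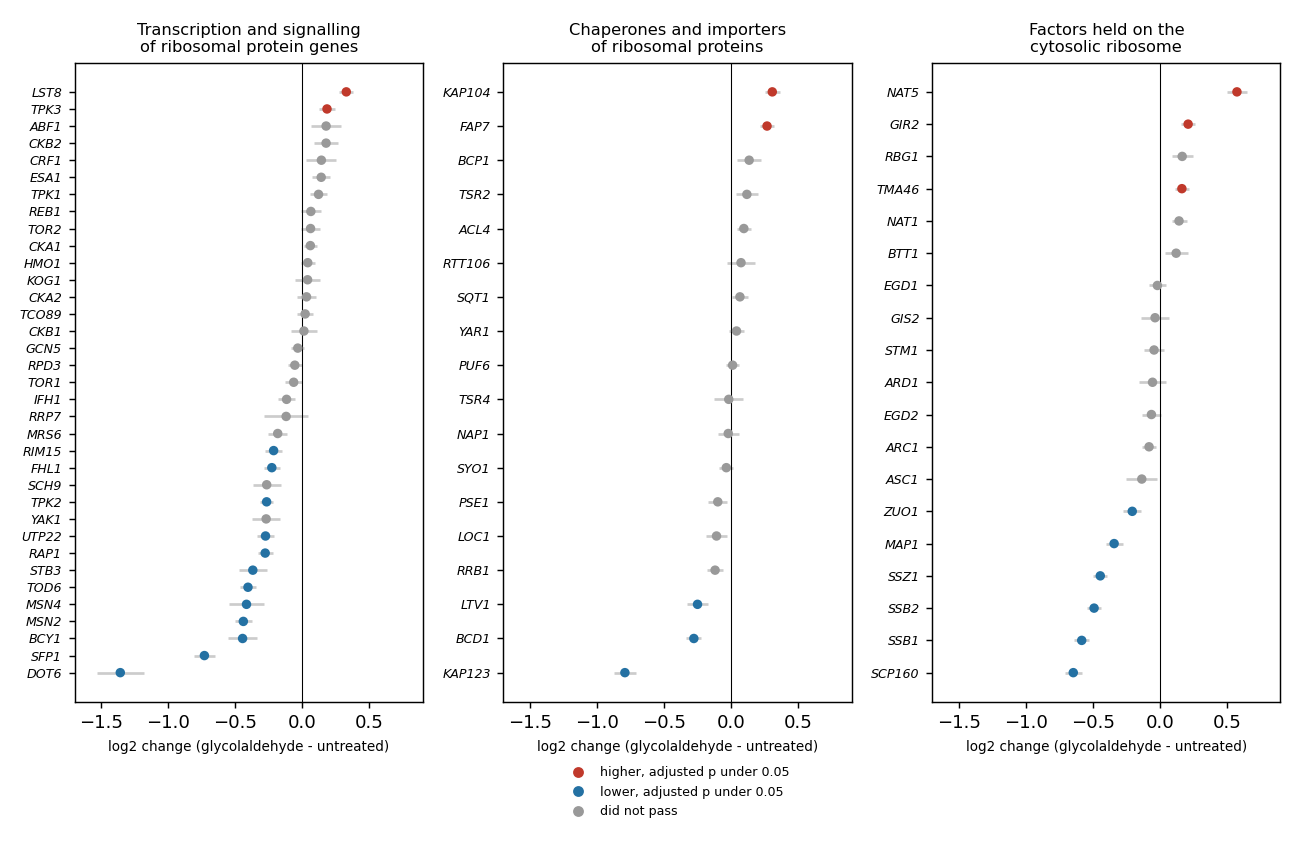
Log2 change (glycolaldehyde minus untreated) with SE bars for genes of 3 lists, namely transcription and signalling of ribosomal protein genes, chaperones and importers of ribosomal proteins, and factors held on the ribosome. The list of chaperones and importers also holds some other factors of ribosome synthesis. Red points were called higher and blue lower, and DOT6 at -1.36, KAP123 at -0.79 and SCP160 at -0.65 are the lowest of their lists.

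Leaving out 1 array moved the counts widely. Of the 20 calls, 6 held without each array, among them RPS9A, RPL22B, RPL18B, RPS22B and RPS30B, and the other 14 were lost without untreated replicate 1, with adjusted p between 0.0584 and 0.146. Without untreated replicate 2, 12 of the 20 calls were lost, without glycolaldehyde replicates 1, 2 and 3 in turn 11, 10 and 8, and without untreated replicate 3, 3 (RPL15B, RPL27B and RPS7B). Without untreated replicate 1 there were 2 higher and 5 lower members (43.2% of all genes called), and without untreated replicate 2 there were 2 and 6 (44.0%). Without glycolaldehyde replicate 1 there were 1 and 8 (41.9%), and without glycolaldehyde replicate 2 there were 2 and 8 (41.8%). Without glycolaldehyde replicate 3, 1 of the arrays of scan day 2, 22 members were called higher and 7 lower (54.2%).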

How the data were processed

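Levels were green-channel intensities on 6 Agilent arrays, with 7 spots for each of 6256 probes (43792 non-control spots). Per the file headers, the authors extracted them with Agilent Feature Extraction 11.0.1.1, and the submitters' processing notes also name R 3.0.2. The deposited value table holds the mean processed intensity of a probe's 7 spots, matched to scanner files within a relative difference of 1e-06. From it, log2 intensity minus the array's 75th percentile was computed, and the brightest probe kept for each identifier. Genes were tested if well above background (by the deposited flags, over a share of 0.5 of spots) on all 3 arrays of a group.

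All 5944 genes and 58 pair differences were fitted together with limma 3.58.1 in R 4.3.3 (lmFit and eBayes, two-sided), adjusted by Benjamini-Hochberg over all of them at 0.05, after a test on simulated data. Standard names came from RefSeq tables (5765 probes matched). The number of arrays limits the precision. Deviations from the group means correlated between samples of one replicate number (r = 0.32, 0.40 and 0.62 over all genes). Replicate 3 of both groups shared scan day 2, so these correlations cannot tell replicate pairing from scan day. The fit with replicate number as a block is given for the named genes and pairs whose call it changes, and not for other members or pairs. Alternatives were the scaling, background correction, dim-probe filter, outlier spots, slide, scan day and each array left out. Named genes were all those called, the extremes of each subunit, single-name and pair class, and a list of functional members, with up to 5 called genes of each list. Members, lists and tests were chosen with earlier results of these data known. Each array's scan day was taken from its file header. No coordinates or sequences are given, and some members' results are not reported here.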

Additional observations from a re-analysis of the deposited data

How the results depend on the processing

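Over 6 unblocked arrays with the percentile scaling, 6 ribosomal protein genes were higher and 14 lower with glycolaldehyde, and 8 pairs differed. Quantile normalization gave 21 higher and 9 lower, and normexp correction of median spot signals with quantile normalization gave 20 and 8 (53.3% of all genes called). Without scaling between arrays there were 0 higher, 1 lower (RPS9A) and 1 pair, with 5.42% of all genes called, against 53.1% with scaling. The pair differences themselves do not depend on this scaling (RPL22 again at 0.70, limma adjusted p = 0.114). Only their standard errors do, and the median SE over all genes was 0.27 without scaling, against 0.07 with it. Scanner files grouped as attached gave 0, 0 and 0, and the 4 arrays of agreed group gave 5 pairs. With the replicate block there were 13 higher, 23 lower and 13 pairs, and all 20 genes and 8 pairs called without it were called. A slide block gave 8 higher and 23 lower (60.5% of all genes called), slide as a random block 12 and 22 (63.1%), a scan-day block 14 higher, 25 lower and 14 pairs (68.7%), and scan day 1 alone 35 higher, 22 lower and 15 pairs. Leaving out 1 array gave 1 to 22 higher, 5 to 13 lower and 5 to 11 pairs. Array median scaling, scanner spots without outliers, no dim-probe filter, the mean over probes, and replicates 1 and 2 averaged within a scan-day block kept each count within 1.5 times. Among named genes and pairs called over 6 unblocked arrays or in the alternative, the sign turned for 2 values. These were RPS7B to 0.0018 under quantile normalization and RPS22A minus RPS22B to -0.0714 with files as attached. Turns of sign of values called in neither fit were not counted. RPS9A was called in 20 of 21 alternatives, and RPL22B, RPL18B, RPS22B and RPS30B in 19. The slide as a random block, scan day 1 alone and the averaged replicates were added after seeing the data. Normexp on mean spot signals was not run, and median signals took its place. Causes were not tested. Leaving out an array also leaves fewer degrees of freedom, and the part of this in the lost calls was not tested. All members were well above background, and whether signal limits the calls was not tested.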
